A study of Mus musculus with 2 samples.

Results

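The genes described are 40 genes of DNA replication and mitosis, taken by symbol from a fixed list and found, all 40, among the 21853 protein-coding genes of the GENCODE vM21 annotation of mm10. They divide into 29 S-phase genes and 11 mitotic genes. The S-phase genes comprise 14 genes of origin licensing and the helicase (Mcm2, Mcm3, Mcm4, Mcm5, Mcm6, Mcm7, Mcm10, Orc1, Orc2, Orc6, Cdc6, Cdt1, Gins1 and Gins2), 6 of DNA synthesis (Pcna, Pola1, Pold1, Pole, Rfc1 and Rfc3), 3 of nucleotide supply (Rrm1, Rrm2 and Tyms) and 6 of entry into S phase (Ccne1, Ccne2, Cdk2, E2f1, E2f2 and E2f3). The mitotic genes comprise 3 cyclins with their kinase (Ccna2, Ccnb1, Ccnb2 and Cdk1), 5 mitotic and checkpoint kinases or their partners (Plk1, Aurka, Aurkb, Bub1 and Bub1b) and 2 genes of mitotic chromosomes (Mki67 and Top2a). Ccna2 and Cdk1 also act in S phase.

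Open chromatin was mapped by DNase-seq, which sequences the ends of fragments that DNase I releases from nuclei and so finds DNA that is not packed in nucleosomes. The tissue was healthy neural tube, the precursor of brain and spinal cord, from B6NCrl mouse embryos of 11.5 days, with both sexes pooled. The labels gave 1 group of 2 biological replicates, which were separate tissue samples under the same donor label, and no treatment, mutation or second tissue. Peaks were windows of 150 bp, 199653 in replicate 1 and 154324 in replicate 2, each called in its own library. Sequencing depth is unknown, because the lists hold no read counts. With 1 group no test across samples was possible, the genes are not replicates of one another, and every value below is a description, with replicate 1 given first in each pair. In bulk tissue a site that is open in few cells and a site that is weakly open in all cells cannot be told apart. Promoter peaks were present at 10 of 10 neural tube markers in both libraries, at 2 of 7 erythroid markers, at 3 and 2 of 4 muscle markers and at 0 of 4 liver and 0 of 4 myeloid markers.

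Before a cell copies its DNA, the origin recognition complex, Cdc6 and Cdt1 load the ring of Mcm proteins onto origins, and cyclin E with Cdk2 then drives the switch to synthesis. Transcription of these genes rises before S phase under E2F factors, which bind short GC-rich elements near the transcription start site (TSS). Genes of mitosis are transcribed later, and their promoters often hold a cell cycle homology region (CHR), bound by the MuvB complex, near CCAAT boxes bound by NF-Y. The neural tube at this stage consists largely of dividing progenitors, and its first neurons have left the cycle.

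The sequences at these promoters are shown first because the 2 classes differed in the short elements they held. Each line gives the part of the replicate 1 promoter peak that lies upstream of the TSS and outside annotated exons, 5′ to 3′ on the strand of the gene, from the GRCm38.p6 assembly, which is mm10. Capitals mark matches to E2F elements (TTCCCGC or TTGGCGC, and also TTCGCGC or TTGCCGC), to the CHR (TTTGAA or TTCGAA) and to the CCAAT box (CCAAT), each searched on both strands. Mcm4 and Mcm6 were the S-phase genes of highest rank with an E2F match in this part, Cdk1, Mki67 and Aurka the mitotic genes of highest rank with a CCAAT box there, and E2f2 the gene whose promoter peak ranked lowest.
Mcm4, chr16:15637416-15637565, minus strand: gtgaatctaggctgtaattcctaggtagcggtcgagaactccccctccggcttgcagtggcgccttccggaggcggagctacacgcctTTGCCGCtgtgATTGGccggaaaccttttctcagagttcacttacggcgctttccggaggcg
Mcm6, chr1:128359665-128359805, minus strand: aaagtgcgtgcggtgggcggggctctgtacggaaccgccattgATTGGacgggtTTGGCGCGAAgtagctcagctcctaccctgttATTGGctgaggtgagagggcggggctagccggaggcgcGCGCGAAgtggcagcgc
Cdk1, chr10:69352939-69353085, minus strand: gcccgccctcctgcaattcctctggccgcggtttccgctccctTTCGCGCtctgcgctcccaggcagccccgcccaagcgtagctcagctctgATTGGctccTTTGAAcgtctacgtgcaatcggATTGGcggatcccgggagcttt
Mki67, chr7:135716436-135716585, minus strand: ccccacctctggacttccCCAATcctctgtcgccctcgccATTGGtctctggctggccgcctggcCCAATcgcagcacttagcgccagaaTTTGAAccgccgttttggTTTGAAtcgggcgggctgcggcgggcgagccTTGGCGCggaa
Aurka, chr2:172370576-172370680, minus strand: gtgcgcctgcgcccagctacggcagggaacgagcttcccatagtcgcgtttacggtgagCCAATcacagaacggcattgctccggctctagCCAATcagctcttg
E2f2, chr4:136172096-136172245, plus strand: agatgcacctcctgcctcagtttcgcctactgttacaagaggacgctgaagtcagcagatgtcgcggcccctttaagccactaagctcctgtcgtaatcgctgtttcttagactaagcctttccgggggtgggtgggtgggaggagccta

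Mcm4 held 1 E2F match and 1 CCAAT box in this stretch, Mcm6 held 3 E2F matches, of which 2 overlap in a single run, and 2 CCAAT boxes. In Cdk1, 1 CHR lay between 2 CCAAT boxes, and in Mki67 2 CHRs lay downstream of 3 CCAAT boxes, and each of these 2 stretches also held 1 E2F match. The stretch of Aurka held 2 CCAAT boxes alone, and that of E2f2 held none of the 3 elements.

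The question of whether these genes were open at their promoters had a uniform answer. All 40 had a peak within 500 bp of a TSS in both libraries, where the share over all protein-coding genes was 68.5% in replicate 1, 67.7% in replicate 2 and 66.5% in both. A hotspot, the broader enriched region that the authors called, also lay at all 40 promoters, each at the highest deposited −log10 q-value of 100. Over all genes 68.9% and 68.1% had any hotspot there, and most of these reached the same value, at 14143 and 13653 of the 21853 genes. Promoter peaks were likewise present in both libraries at 36 of 36 other S-phase genes (such as the primase and replication protein A subunits), 37 of 37 other mitotic genes (kinesins, kinetochore and condensin subunits), 10 of 10 D cyclins and CDK inhibitors and 77 of 77 ribosomal protein genes. The share of open promoters was thus the same in each of these lists.

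Peaks were then ranked by the score that the authors deposited, as a percentile among all peaks of the same library, in which 100 is the highest. The median percentile of the best promoter peak over the 40 genes was 98.5 and 97.5, a mean of 98.0 ± 0.738 (SD, n = 2 libraries), against 95.7 and 94.7 over all genes with a promoter peak. Best peaks ranked within the highest 10% of their list at 40 of 40 genes in replicate 1 and 39 of 40 in replicate 2, against 51% and 48.2% of all genes. In the top 5% were 38 and 33 of the 40, against 38.5% and 32.9% of all genes. These shares count genes without a promoter peak as outside. Among genes with one, 11149 of 14963 and 10533 of 14791 were in the top 10%, and 8419 and 7194 in the top 5%. E2f2 was the gene outside the top 10% in replicate 2. Set only against the best promoter peaks of other genes, the 40 genes had a median percentile of 79.8 and 73.3. The medians of the other S-phase genes (98.2 and 97.2), the other mitotic genes (98.1 and 97.0) and the ribosomal protein genes (97.8 and 96.4) lay close below those of the 40 genes, and those of the D cyclins and CDK inhibitors were lower, at 95.7 and 95.6.

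**Figure D1:**
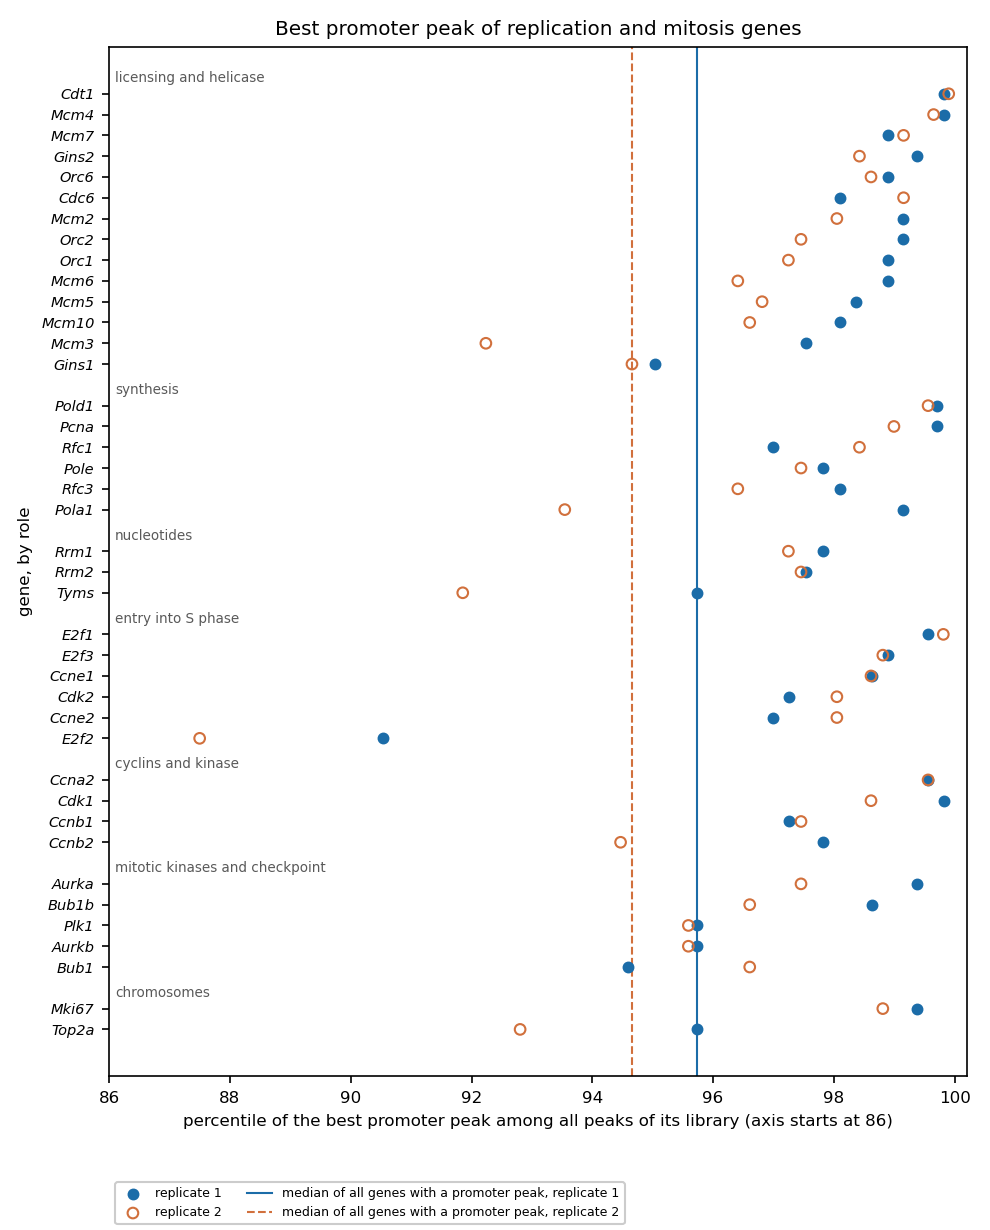
Percentile of the best promoter peak of each of the 40 genes among all peaks of its library (horizontal axis, starting at 86), with 1 row per gene grouped by role, filled points for replicate 1 and open points for replicate 2. Vertical lines are the medians of all genes with a promoter peak, 95.7 in replicate 1 and 94.7 in replicate 2; E2f2 lies left of both lines in both libraries.

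Among the licensing genes, Cdt1, which brings the Mcm ring to origins, ranked highest of all 40 genes, with percentiles of 99.8 and 99.9 (scores 145 and 138). Mcm4, a subunit of that ring, followed at 99.8 and 99.7 (scores 145 and 134). The other ring subunits spread more widely. Mcm2 was at 99.1 and 98.0, Mcm7 at 98.9 and 99.2, Mcm6 at 98.9 and 96.4, Mcm5 at 98.4 and 96.8 and Mcm3 at 97.5 and 92.2, so that Mcm3 was lowest of the 6 in both libraries. Of the genes that build the loading platform, Orc6 had 98.9 and 98.6, Orc1 98.9 and 97.2, Orc2 99.1 and 97.5 and Cdc6 98.1 and 99.2. Gins2, part of the complex that activates the helicase, was at 99.4 and 98.4, and its partner Gins1 was the lowest licensing gene in replicate 1, at 95.04 and 94.66. Mcm10, which helps to start the fork, was at 98.1 and 96.6.

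Among genes of synthesis, Pold1, the catalytic subunit of DNA polymerase delta, had 99.7 and 99.6, and Pcna, the sliding clamp, had 99.7 and 99.0. Pole, the catalytic subunit of polymerase epsilon, was at 97.8 and 97.5. The clamp loader subunits Rfc1 and Rfc3 were at 97.0 and 98.4 and at 98.1 and 96.4. Pola1, of the primase-associated polymerase alpha, was at 99.1 and 93.5, the widest gap between the libraries among the 40 genes, of 5.6 points. Ribonucleotide reductase, encoded by Rrm1 and Rrm2, was at 97.8 and 97.2 and at 97.5 and 97.5. Tyms, which makes thymidylate, was lower at 95.7 and 91.9.

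The genes of entry into S phase ranged from near the top of the 40 genes to the lowest. E2f1 was at 99.6 and 99.8 and ranked just below Cdt1 and Mcm4 among S-phase genes by its mean, and E2f3 was at 98.9 and 98.8. E2f2, which encodes another activator of the same family, was the lowest of the 40 genes in both libraries, at 90.5 and 87.5 (scores 107 and 74). Its best peak was centred at −223 and −183 bp from its single protein-coding TSS, upstream, and a lower peak lay 317 and 357 bp downstream, at percentiles 86.8 and 82.4. Of the cyclin E genes, Ccne1 was at 98.6 in both libraries and Ccne2 at 97.0 and 98.0, and their kinase Cdk2 was at 97.3 and 98.0. Ccne2 and Cdk2 lay below the lower quartile of S-phase genes in replicate 1 (97.5) and at their median in replicate 2 (98.0). All 6 genes of entry had several promoter peaks in each library.

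For the mitotic genes, Ccna2, encoding cyclin A2, had 99.6 in both libraries, Cdk1 had 99.8 and 98.6, and Mki67, the proliferation antigen that coats mitotic chromosomes, had 99.4 and 98.8. Aurka, the centrosomal Aurora kinase, was at 99.4 and 97.5 and the checkpoint gene Bub1b at 98.6 and 96.6. Ccnb1 and Ccnb2, encoding B cyclins, were at 97.3 and 97.5 and at 97.8 and 94.5. The lowest were Top2a, the topoisomerase that untangles sister chromatids, at 95.7 and 92.8, the checkpoint kinase Bub1 at 94.6 and 96.6, and the kinases Plk1 and Aurkb, tied at 95.7 and 95.6. These 4 genes lay within 2 points of the medians of all genes in each library, whereas the highest 3 lay more than 3 points above them.

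The comparison of S-phase with mitotic genes gave a difference of the same direction in both libraries, whose size depended on the scale. The median percentile was 98.6 and 98.0 for S-phase genes and 97.8 and 96.6 for mitotic genes, a difference of 0.814 and 1.44 points, or 1.13 ± 0.445 (SD, n = 2 libraries). The classes overlapped over most of their range. In replicate 1 the interquartile range of S-phase genes was 97.5 to 99.1 and that of mitotic genes was 95.7 to 99.4, and in replicate 2 they were 96.6 to 98.8 and 95.6 to 98.0. No test was run. The difference was 0.563 points with 1 representative TSS per gene in place of all TSSs and 2.26 points within the higher-scoring 50% of each list. Among best promoter peaks of all genes it was 12.1 points, with medians of 81.6 and 79.3 for S-phase and 71.3 and 65.3 for mitotic genes. The other S-phase and other mitotic genes, which are not among the 40, lay closer together. Their medians were 98.2 and 97.2 against 98.1 and 97.0. On the scale of best promoter peaks they were 76.4 and 71.3 against 74.7 and 69.3.

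Base composition accompanied these ranks. The window from 250 bp before to 50 bp after the representative TSS had a median GC content of 59.2% at the 40 genes against 56% at all genes, and a median ratio of observed to expected CpG of 0.919 against 0.557. It was CpG-rich (GC of at least 50% and ratio of at least 0.6) at 30 of the 40 genes, or 75%, against 43.9% of all genes. Among all CpG-rich genes 98.6% were open at the promoter in either library, and the median percentile was 97.0 and 96.4, against 98.9 and 98.0 for the 30 CpG-rich genes of the list. The 10 genes without such a window were Mcm3, Mcm7, Mcm10, Orc2, Gins1, Rrm1, Tyms, E2f2, Bub1b and Top2a. All 10 had promoter peaks, with a median percentile of 97.7 and 95.6, where 44.8% and 43.5% of all genes without a CpG-rich window had one, with a median of 90.5 and 88.6. The 10 include the 5 lowest genes of the whole list by mean percentile, namely E2f2, Tyms, Top2a, Gins1 and Mcm3. The part of base composition in the ranks was not tested.

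The best promoter peak sat just upstream of the TSS. Its centre was at a median of −49 and −51.5 bp over the 40 genes, with negative values upstream, against −28 and −25 bp over all genes with a promoter peak. It lay upstream at 32 and 30 of the 40 genes, or 80% and 75%, against 66.6% and 65.4%. For all genes with a CpG-rich window the medians were −37 and −34 bp, and 74.1% and 73.4% of best peaks lay upstream. S-phase genes had medians of −50 and −56 bp and mitotic genes −48 and −28 bp, so the classes differed by 2 bp in replicate 1 and 28 bp in replicate 2. Peak starts lie on a grid of 20 bp, and 28 bp is little more than 1 step of it. The order was the other way outside the 40 genes, at −26.5 and −32.5 bp for other S-phase genes and −68 and −61 bp for other mitotic genes. Of the 40 genes, the farthest downstream was Gins1, at 157 and 177 bp, and the farthest upstream was E2f2. The best peaks of the 2 libraries overlapped at 40 of 40 genes, against 91.4% of all genes open in both, and were at most 1 grid step apart at 32 of 40, or 80%, against 71.9%.

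Several promoter peaks were present at 17 and 14 of the 40 genes, or 42.5% and 35%, against 37.9% and 36% of all genes. The share over all genes includes those without any promoter peak. Among genes with one, 8284 of 14963 and 7859 of 14791 had several. Genes with a CpG-rich window, nearly all of them open, had several at 55.3% and 52.9%, more often than the 40 genes. The 40 genes had 84 annotated TSSs, of which 78 had a peak within 500 bp in each library. The 5 TSSs without a peak in either library were alternative starts of Mcm4, Mki67, Orc2, Pole and Rfc1. E2f3 had 2 open promoters. Its upstream TSS, at −1672 bp from the representative one, had percentiles of 98.9 and 98.8, and its downstream TSS, from which the representative transcript starts, 95.5 and 92.0. At Mcm7 the strongest peak lay near a TSS 1181 bp downstream of the representative one, whose own best peak was at 98.1 and 95.6. A peak centred 603 bp downstream of the Pcna TSS, just outside the 500 bp window, was nearly as high as the promoter peak, at 99.4 and 98.8. Another outside it, at −838 bp from Mcm5, was at 93.4 and 85.8. Just inside, a peak of Cdk1 centred at 552 bp touched the window with its edge, at 75.7 and 72.1, and was not the best peak of that gene.

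A protein-coding TSS on the other strand lay within 1 kb at 7 of the 40 genes, against 11.4% of all genes. The pairs were Mcm4 with Prkdc (489 bp), Mcm7 with Ap4m1 (184 bp), Orc1 with Prpf38a (118 bp), Pole with Pxmp2 (120 bp), Cdk2 with Pmel (150 bp) and Aurka with Cstf1 (146 bp), with Orc6 and Vps35 overlapping at their starts by 11 bp. Of the 7, 6 belonged to the S-phase class. At these genes a promoter peak cannot be assigned to 1 of the 2 genes.

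The elements marked in the sequences above differed in frequency between the classes. An E2F match was present from 250 bp before to 50 bp after the representative TSS at 16 of 29 S-phase genes (55.2%) and 3 of 11 mitotic genes (27.3%), against 12.1% of all genes. A CHR was present at 2 of 29 S-phase genes (6.90%) and 9 of 11 mitotic genes (81.8%), against 17.2% of all genes. The wider lists, which share no gene with the 40, had the same order, with E2F at 41.7% of other S-phase and 18.9% of other mitotic genes and CHR at 8.33% and 59.5%. CCAAT boxes were frequent in both classes, at 72.4% of S-phase and 90.9% of mitotic genes against 38.6% of all genes. Among the wider lists they were at 44.4% of S-phase and 78.4% of mitotic genes.

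**Figure D2:**
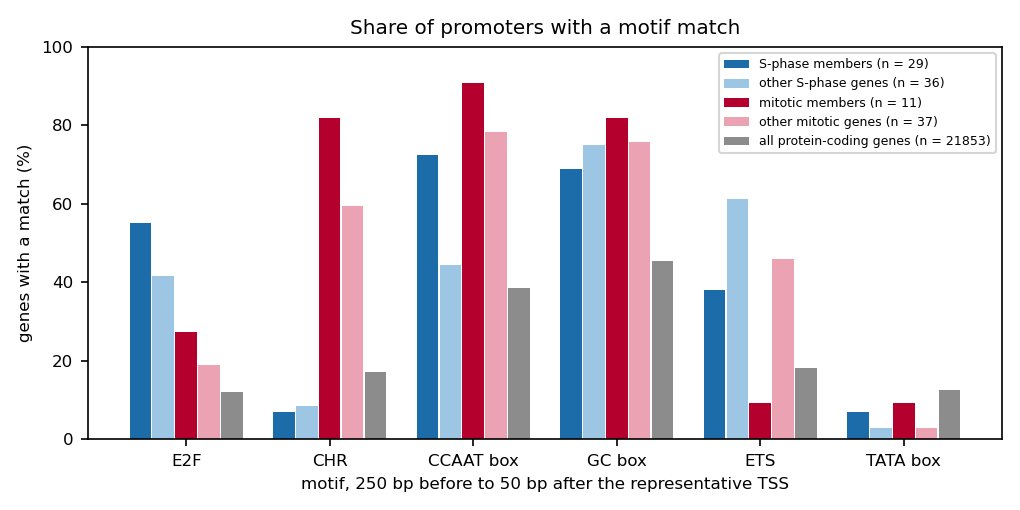
Share of genes (percent, vertical axis from 0) with a match to each of 6 elements from 250 bp before to 50 bp after the representative TSS, for S-phase and mitotic genes of the list, for the wider S-phase and mitotic lists and for all protein-coding genes. CHR bars are high for both mitotic lists, at 81.8% and 59.5%, and below the 17.2% of all genes for both S-phase lists.

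Other elements were also searched on both strands. A GC box (GGGCGG), to which Sp1 binds, was at 69.0% of S-phase and 81.8% of mitotic genes against 45.4% of all genes. An ETS element (CCGGAA) was at 37.9% and 9.09% against 18.1%, and a TATA box (TATAAA) at 6.90% and 9.09% against 12.6%. The ETS share of the mitotic class rested on 1 gene, Aurka, and among the wider lists this element was frequent at both S-phase (61.1%) and mitotic genes (45.9%).

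The S-phase genes with an E2F match were Mcm3, Mcm4, Mcm5, Mcm6, Orc1, Cdc6, Cdt1, Gins1, Pola1, Pole, Rfc3, Rrm1, Rrm2, Cdk2, E2f1 and E2f2, which hold 35 matches in all. Overlapping matches were each counted, as at Mcm3, Mcm5, Mcm6 and Gins1, so the separate sites were fewer than 35. Of the licensing genes, 8 had an E2F match. Windows of 30 bases around the match nearest to the TSS of those 8 genes, on the strand of the gene, show that the element occurred in either orientation, with the match in capitals.
Mcm3, chr1:20820275-20820304, minus strand: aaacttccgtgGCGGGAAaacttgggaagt
Mcm4, chr16:15637459-15637488, minus strand: gctacacgcctTTGCCGCtgtgattggccg
Mcm5, chr8:75109551-75109580, plus strand: gaggctggtttTTCCCGCgaaagtcggctt
Mcm6, chr1:128359663-128359692, minus strand: gccggaggcgcGCGCGAAgtggcagcgcgg
Orc1, chr4:108579416-108579445, plus strand: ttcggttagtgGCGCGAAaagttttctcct
Cdc6, chr11:98908002-98908031, plus strand: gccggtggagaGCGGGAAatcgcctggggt
Cdt1, chr8:122568022-122568051, plus strand: gcgcggaatccGCGGGAActacctttttgg
Gins1, chr2:150909578-150909607, plus strand: gagcctatttgGCGCCAAagcgaggagctg

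Counting the representative TSS as 0, the matches shown began at 19 for Mcm3, −77 for Mcm4, −7 for Mcm5 and −17 for Mcm6. The others began at −27 for Orc1, −138 for Cdc6, 18 for Cdt1 and −5 for Gins1. The best peak of Cdc6 was nearest to another TSS, upstream of the representative one. The Cdc6 match lay 285 bp downstream of the centre of that peak in both libraries. Over the S-phase class 17 of 35 E2F matches, or 48.6%, began within 50 bp of the TSS, against 38.8% over all genes. The best peak itself held 11 of the 35 in replicate 1 and 17 in replicate 2, so most lay beside the 150 bp window with the highest score in replicate 1. Cdt1, with the highest rank of all, had its 2 matches downstream of its peak windows. No E2F match of these letters was in the window of Mcm2, Mcm7, Mcm10, Orc2, Orc6, Gins2, Pcna, Pold1, Rfc1, Tyms, Ccne1, Ccne2 or E2f3, and that says only that these letters are not in that window. In the 500 bp to either side, 25 of the 29 S-phase genes (86.2%) had one, against 5 of the 11 mitotic genes (45.5%) and 29.2% of all genes.

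The mitotic genes with a CHR were Ccnb2, Cdk1, Plk1, Aurka, Aurkb, Bub1, Bub1b, Mki67 and Top2a. The match nearest to the TSS of each is shown in capitals within 30 bases on the strand of the gene, because the element recurred across genes of different roles.
Ccnb2, chr9:70421533-70421562, minus strand: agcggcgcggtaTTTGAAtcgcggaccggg
Cdk1, chr10:69352910-69352939, minus strand: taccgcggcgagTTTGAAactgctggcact
Plk1, chr7:122159453-122159482, plus strand: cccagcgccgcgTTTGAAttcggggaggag
Aurka, chr2:172370521-172370550, minus strand: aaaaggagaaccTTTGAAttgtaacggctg
Aurkb, chr11:69045636-69045665, plus strand: tagagcgggagaTTCGAAagcgtccgggtc
Bub1, chr2:127831828-127831857, minus strand: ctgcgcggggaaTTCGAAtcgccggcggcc
Bub1b, chr2:118598239-118598268, plus strand: agagacgttaaaTTTGAAacttggcggccc
Mki67, chr7:135716460-135716489, minus strand: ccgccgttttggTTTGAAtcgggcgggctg
Top2a, chr11:99024195-99024224, minus strand: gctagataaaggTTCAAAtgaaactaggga

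Counted from the representative TSS, these began at −3 for Ccnb2, 11 for Cdk1, 26 for Plk1, −32 for Aurka and −4 for Aurkb. The others began at 20 for Bub1, 40 for Bub1b, −116 for Mki67 and −23 for Top2a. In Top2a the match shown was on the other strand, and TTCGAA, at Aurkb and Bub1, reads the same on both strands. Of the 17 CHR matches of the class, 9 (52.9%) began within 50 bp of the TSS, against 22.2% over all genes and 92.3% over the 26 matches of the wider mitotic list. The best peak held 10 and 12 of the 17. All 9 genes also had a CCAAT box in the same window, a pairing found at 7.58% of all genes, 2 of the 29 S-phase genes and 54.1% of the wider mitotic list. The 26 CCAAT boxes of the class began at a median of −80.5, and 20 and 19 of them were in the best peak. Ccna2 held neither a CHR nor a CCAAT box in these letters and Ccnb1 held CCAAT boxes without a CHR, while 2 S-phase genes, Mcm2 and Rfc3, had a CHR, outside their best peaks. In the 500 bp to either side a CHR was at 37.9% of S-phase genes, 81.8% of mitotic genes and 46.9% of all genes.

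Within the best promoter peak of replicate 1 alone, a CHR was present at 63.6% of mitotic genes and 6.90% of S-phase genes, against 4.31% of all genes with a promoter peak. A CCAAT box was present at 81.8% and 62.1%, against 27.1%. For E2F the classes did not keep their order there, with 27.3% of mitotic genes (3 of 11) and 20.7% of S-phase genes (6 of 29), against 11.2%. The matches of E2F and CCAAT box overlapped in 1 gene, Ccnb1. The wider lists did keep the order for E2F within that peak, at 38.9% of S-phase and 10.8% of mitotic genes. Their CHR shares there were 5.56% and 27.0%, and their CCAAT box shares 41.7% and 64.9%.

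**Figure D3:**
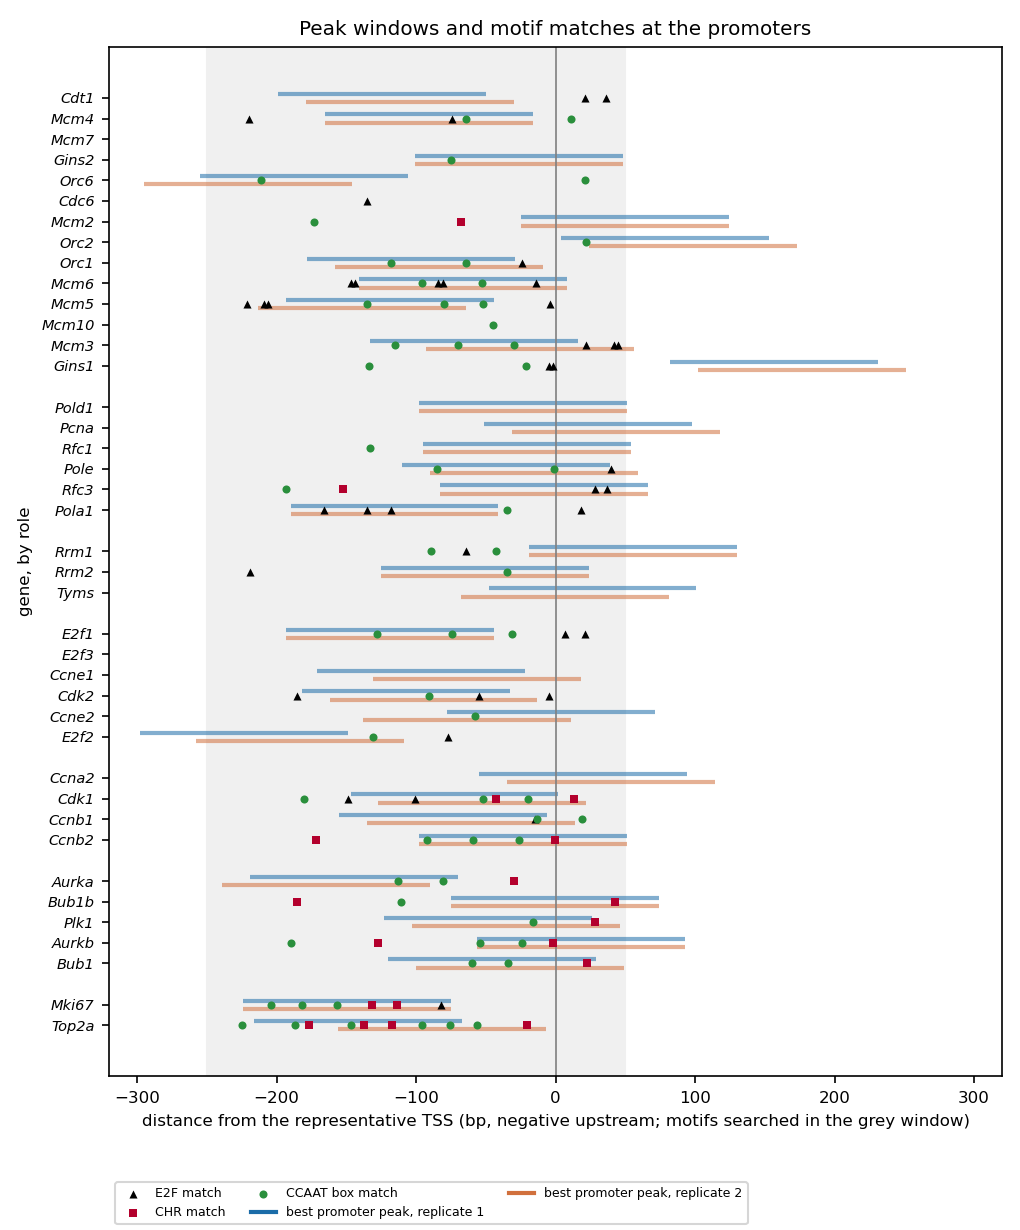
Position of the best promoter peak in replicate 1 (blue) and replicate 2 (orange) and of E2F, CHR and CCAAT box matches relative to the representative TSS (bp, negative upstream), with 1 row per gene in the order of the plot of percentiles. Motifs were searched in the grey window; peaks centred on a distant alternative TSS, such as those of Mcm7 and E2f3, fall outside the axis, and CHR matches (squares) occur at 9 of the 11 mitotic genes in the lower rows.

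Distal peaks, centred over 1 kb from every protein-coding TSS and assigned to the nearest one, were few at most of the genes. The median was 1.5 and 1 per gene, a mean of 1.25 ± 0.354 (SD, n = 2 libraries), against 3 and 2 over all genes. At least 1 was present at 28 and 21 of the 40, or 70% and 52.5%, against 73.7% and 69.8%. None was present in either library at 7 S-phase genes (Mcm4, Mcm7, Orc1, Orc6, Pold1, Tyms and Cdk2) and 4 mitotic genes (Ccna2, Ccnb1, Aurka and Top2a), while 22.5% of all genes had none in both. The territory of a gene, which is the length of genome nearer to its TSSs than to those of other genes, had a median of 33.5 kb at the 40 genes and 46.4 kb at all genes, and Cdk2 had the shortest at 0.506 kb. The part of territory length in the low counts was not tested. Across the 40 genes the number of distal peaks in replicate 1 had a Spearman correlation of 0.54 with territory (n = 40 genes, which share their libraries), against 0.80 over the 14535 genes with a promoter peak in both.

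The total was 232 and 154 distal peaks, of which 123 and 70 were at mitotic genes. Mki67 alone had 87 and 46 of these in a territory of 624 kb. Without it the 10 other mitotic genes had 36 and 24, or 8.15 and 5.43 per 100 kb, against 7.26 and 5.60 for S-phase genes and 5.99 and 4.43 over all genes. Without Aurkb as well, the 9 remaining mitotic genes had 5.48 and 3.34 per 100 kb, below the value over all genes. The median density of single genes was also lower than that of all genes (5.33 and 3.53), at 3.397 and 1.406 for S-phase and 3.52 and 0 for mitotic genes. Median counts did not order the classes in the same way in both libraries, with 2 and 0 for mitotic and 1 and 1 for S-phase genes. The most distal peaks among S-phase genes were at Gins2 and Ccne1, with 17 and 11 each, and at Rrm2, with 13 and 8. The Gins2 peaks that ranked highest in replicate 1, 23973 and 18813 bp downstream, lay within Gse1. They were 2708 and 790 bp from an annotated start of Gse1. After Mki67, the mitotic genes with the most were Aurkb, with 13 and 10, and Ccnb2, with 13 and 5.

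**Figure D4:**
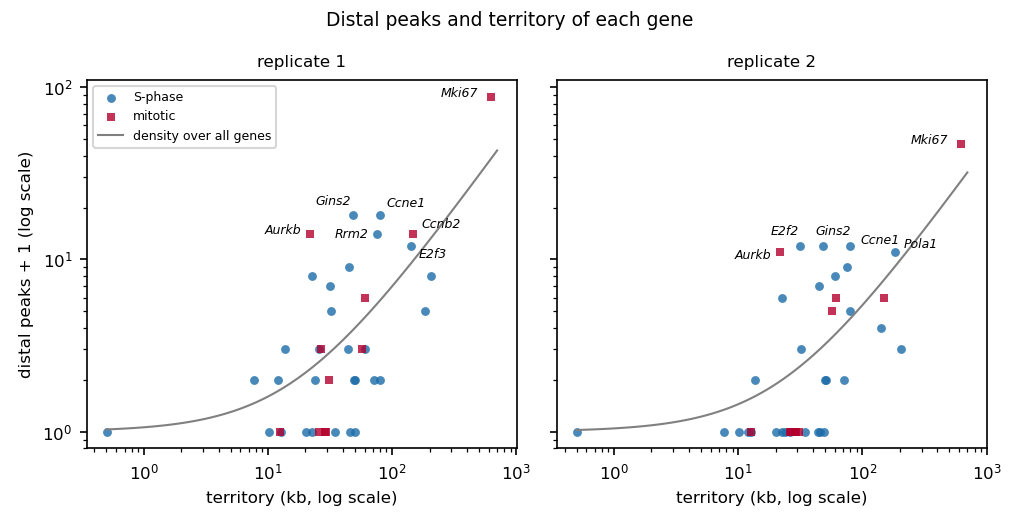
Distal peaks of each gene, plus 1 (vertical axis, log scale), against its territory (kb, log scale), in replicate 1 on the left and replicate 2 on the right, with circles for S-phase and squares for mitotic genes. The grey curve is the density over all genes, 5.99 and 4.43 peaks per 100 kb; Aurkb lies far above it at 13 and 10 peaks in 21.8 kb.

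Strong distal peaks were concentrated at a few genes. In the top 10% of its list were 22 of the 232 peaks in replicate 1 (9.48%) and 10 of the 154 in replicate 2 (6.49%), against 3.55% and 2.52% of distal peaks of all genes. Aurkb and E2f2 together held 12 of the 22 in replicate 1 and 7 of the 10 in replicate 2. Aurkb had 59.6 and 45.8 distal peaks per 100 kb, all upstream and, except 1 in each library, between genes. Of them, 8 in replicate 1 and 4 in replicate 2 were in the top 10%, in a stretch from 3776 to 9596 bp before the TSS in replicate 1. The highest was 5316 bp upstream at percentile 96.5 in replicate 1, with an overlapping peak in replicate 2 at 94.1. The promoter peak of Aurkb itself had a similar rank, at 95.7 and 95.6. The peaks 7836, 8316 and 9596 bp upstream in replicate 1 lay nearer to an annotated start of Ctc1, at 2932, 2452 and 1172 bp. That start belongs to no protein-coding transcript, so it was not used in the assignment. E2f2 had 4 peaks in the top 10% in replicate 1 and 3 in replicate 2. They lay 8723 bp upstream (93.4 and 93.5), about 12 kb upstream (95.04 and 92.24) and 7777 bp downstream within the gene (91.1 and 90.2). Each of these 3 sites ranked above the best promoter peak of E2f2 in both libraries. The site 7777 bp downstream lay 612 bp from another annotated start of E2f2, which was not among the protein-coding TSSs used.

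The strongest distal peak of the whole set was at Ccne1, between genes and 21837 and 21877 bp downstream of the nearest Ccne1 TSS. Its percentile of 99.7 and 99.9 exceeded the 98.6 of the Ccne1 promoter in both libraries. The replicate 1 window is shown on the plus strand because it held the core of the CTCF element (CC and AG with 3 bases between, then GGC after another 2 bases, on either strand), in capitals, a search added after the peak was seen.
Ccne1 distal peak, chr7:38084996-38085145, plus strand: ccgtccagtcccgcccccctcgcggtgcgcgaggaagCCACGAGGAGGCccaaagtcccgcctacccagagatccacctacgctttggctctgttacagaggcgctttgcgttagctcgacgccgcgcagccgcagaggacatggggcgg

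CTCF is a DNA-binding protein found at the bases of chromatin loops. The core was in 11.5% and 12.2% of all distal peaks, in 18.2% and 20.5% of those in the top 10%, and in 35 of 232 (15.1%) and 27 of 154 (17.5%) distal peaks of the 40 genes. At E2f2 the peak 8723 bp upstream also held it, as did the replicate 1 peak 12403 bp upstream.

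Mki67 had no single dominant site. Its highest distal peaks were 137350 bp upstream (93.4 in replicate 1, with an overlapping peak at 89.9 in replicate 2), centred 29 bp from the start of the noncoding gene 6330420H09Rik, and 19530 bp upstream (93.2 and 91.5). For Rrm2 the peaks 15562 and 10970 bp from its TSSs were at 91.4 and 90.5 in replicate 1, and the replicate 2 peaks that overlap them were outside the top 10%, at 79.9 and 87.2. For E2f1 a peak 7679 bp upstream was at 90.5 and 88.6. Of the distal peaks of the 40 genes, 43.1% of those in replicate 1 overlapped a peak of replicate 2 and 67.5% the other way, against 48.1% and 66.4% for all distal peaks. Assignment to the nearest TSS does not show which gene a distal site acts on.

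**Figure D5:**
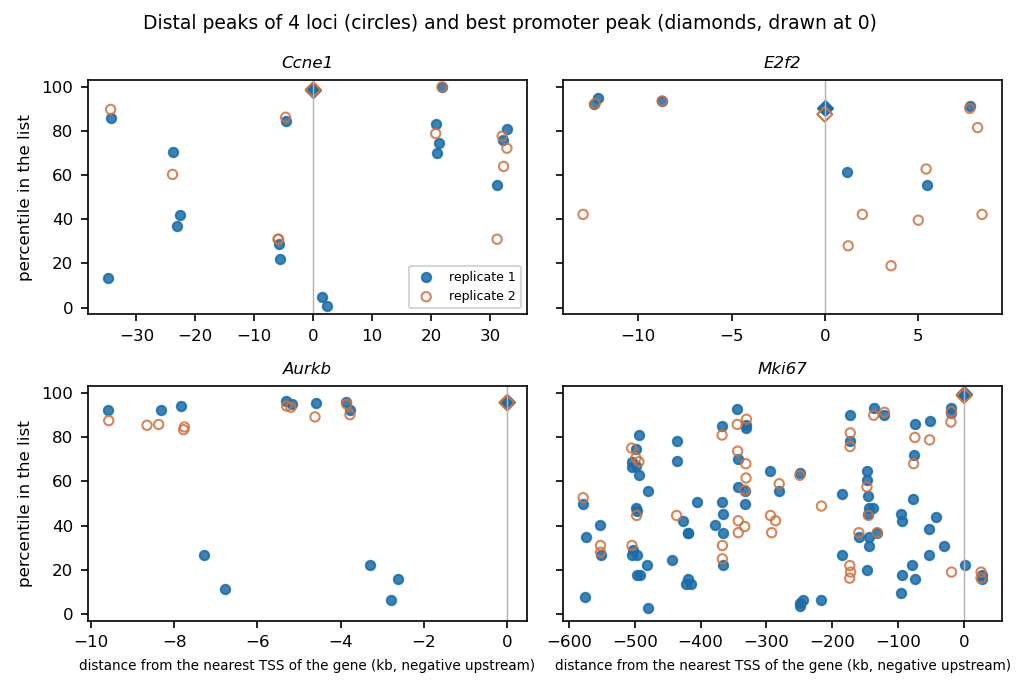
Percentile of each distal peak (circles, vertical axis) against its distance from the nearest TSS of the gene (kb, negative upstream) at Ccne1, E2f2, Aurkb and Mki67, filled for replicate 1 and open for replicate 2, with the best promoter peak as diamonds drawn at 0. The Ccne1 peak about 22 kb downstream stands above the promoter, the Aurkb peaks form a group upstream, and the Mki67 peaks spread over most of its territory of 624 kb.

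Agreement between the libraries limited how finely the genes could be ordered. Over the 40 genes the percentiles of the 2 libraries had a Spearman correlation of 0.70 (n = 40 genes), against 0.94 over the 14535 genes open in both, and the 40 genes occupied a narrow part of the scale. The gap between the libraries for the same gene had a median of 1.00 points. Part of it was a shift common to the genes, since 31 of 40 were higher in replicate 1 and the median difference was 0.473 points. With that shift taken off, the median gap was 0.734 points, and 37 of the 39 pairs of neighbours in the order of mean percentiles differed by less than that. The step from E2f2 to Tyms was larger. Cdt1 was highest in both libraries, tied with Mcm4 and Cdk1 in replicate 1, and E2f2 was lowest in both.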

How the data were processed

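DNase-seq peaks and hotspots were deposited for 2 libraries of 1 group. Per the deposited files, the authors called both on mm10 in each library separately; no source used here names the aligner, the caller or a threshold (not given in the sources used here). The authors gave each peak a whole-number score of unstated meaning, and each hotspot a −log10 q-value from 1.30 to a ceiling of 100. Repeated rows were dropped (45 and 22).

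Positions were compared with GENCODE vM21 (54361 protein-coding TSSs) and GRCm38.p6 in Python 3.11.15 with numpy 2.4.6, pandas 2.3.3 and pysam 0.24.0. Promoter peaks lay, at least in part, within 500 bp of a TSS; the best was the one with the highest score. Percentiles used mid-ranks for ties. A position is that of the window's centre relative to the nearest TSS. The region arithmetic was tested on simulated data. The members and lists were chosen with earlier results of these data known, and the CTCF core and the CpG split were added after values were seen. Genes were named as the 3 highest and 3 lowest by mean percentile, the 3 with most distal peaks and those with none, per class, with every member's percentile given; other loci were named after their values were seen.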

Additional observations from a re-analysis of the deposited data

How the results depend on the processing

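All 40 genes had a promoter peak in every library used under each of the 9 alternatives tried. These included leaving out either library, narrower and wider windows, a single TSS per gene and hotspots in place of peaks. The ranges when either library was left out were 40 to 40 genes, a median percentile of 97.5 to 98.5, a difference of S-phase minus mitotic genes of 0.814 to 1.44 points, a position of −51.5 to −49 bp and 1 to 1.5 distal peaks. With the higher-scoring 50% of each list the median percentile was 96.0, the difference between classes 2.26 points and the median number of distal peaks 0.25. Ranked among best promoter peaks of all genes, the median was 76.5 and the difference 12.1 points. With 1 representative TSS per gene the difference was 0.563 points and the position −47 bp. Distal peaks over 5 kb from every TSS had a median of 0.5 per gene. None of the alternatives for the difference between classes changed its sign, including those that counted Ccna2 and Cdk1 as S-phase genes or left out the 6 genes of entry. Within 500 bp to either side of the TSS, E2F was at 86.2% and CCAAT at 89.7% of S-phase genes, CCAAT was at 100% and CHR again at 81.8% of mitotic genes, where all genes had 29.2%, 70.0% and 46.9% for E2F, CCAAT and CHR. In these wider windows CHR was at 37.9% of S-phase genes, up from 6.90%, and E2F at 45.5% of mitotic genes, up from 27.3%, so the contrast between the classes was smaller for CHR, as was the gap to all genes for CHR and CCAAT. No paired analysis was possible because there was 1 group. Read depth is unknown, so no limit from depth could be computed, and 2 libraries under the same donor label measure only the spread between these samples, which may be technical.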
